A study of Cervus nippon with 12 samples.

Results

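The deer miRNAs that the study predicted itself, listed under names that begin with novel_, are described here in antler reserve mesenchyme cells (RMCs) on their way to cartilage and in antler chondrocytes. They were chosen by name alone: 70 of the 545 names in the 12 library files begin with novel_, and the other 475 carry cattle names from miRBase. The names novel_348 and novel_351 held nearly the same read counts, so they were counted once, which left 69. Each of the 69 had at least 1 read in at least 1 library. The pattern across groups is given for the 14 that had 10 or more reads in at least 3 libraries, and the other names are given by counts, ranges and single examples.

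All samples were small RNA libraries from wild-type sika deer (Cervus nippon) antler, with 3 libraries in each of 4 groups. RMCs, labelled as mesenchymal stem cells, were pelleted in tubes and held in chondrogenic medium for 0 days (CP_0), 7 days (CP_7) or 14 days (CP_14), and the fourth group was chondrocytes (CC). The cells came from the growing tips of antlers of 3-year-old male deer. The study's methods speak of 3 biological replicates for each tissue type, and no source used here says which deer or culture gave which library, so a p-value measures the spread between these libraries.

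A miRNA is a short RNA cut from a hairpin precursor, and it guides a silencing complex to mRNAs that pair with its seed, the bases near its 5′ end. A novel_ name is given when small RNA reads fall on a genome stretch that folds into such a hairpin and match no known miRNA. Such a prediction rests on reads and folding, and neither a target nor a role is known from the name. The sequences and positions of the predicted miRNAs were not used here, so shared seeds and the genes around them were not analysed.

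The files gave reads per 1000000 (RPM), and the whole reads behind them were recovered from the value of a single read. Libraries held between 539455 and 1032029 reads in CP_7, between 2973442 and 4097304 in CP_0, between 2791559 and 3864900 in CP_14, and between 9714090 and 10256572 in CC. A single read is therefore worth more RPM in CP_7 than in any other group. Levels are given on 2 scales: the share of a library's reads, and TMM-normalized RPM, which divides out a factor for each library estimated from the bulk of all miRNAs. Over the 12 libraries these factors ran from 1.68 to 2.09 in CP_7, from 0.846 to 1.02 in CP_0 and CP_14, and from 0.559 to 0.650 in CC, so the scale matters for any modest change. In bulk samples such as these, fewer cells of a type and less RNA per cell cannot be told apart.

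Marker miRNAs of other cell types also moved between groups. The summed level of 3 skeletal muscle markers was 4467 to 6616 RPM in CP_7, against 535 to 681 RPM in CP_0, 1679 to 1747 RPM in CP_14 and 718 to 751 RPM in CC. Most of it was miR-1, while miR-206 had 263, 7 and 0 reads in the CP_7 libraries and 148, 37 and 31 in CP_14. The summed level of 3 red blood cell markers was 22.1 to 145 RPM in CP_7, 3486 to 5167 RPM in CP_14 and 1387 to 1460 RPM in CC, and it ran from 11.8 to 4192 RPM in CP_0, where replicate 3 stood apart. Nearly all of it was miR-451 and miR-486, since miR-144 had at most 2 reads in a library. As reads, miR-451 numbered 6431, 6039 and 6109 in CP_14, 6619, 6293 and 6119 in CC, and 6933 in CP_0 replicate 3. For miR-486 they were 7992, 7615 and 7363 in CP_14, 8345, 7885 and 7706 in CC, and 8312 in CP_0 replicate 3. These counts were similar although CC was sequenced more deeply. The endothelial marker miR-126, listed under 2 names, reached 188 to 3083 RPM in CP_7, highest in replicate 3, and 28.4 to 83.6 RPM elsewhere. Most of it was miR-126-3p, and miR-126-5p had a mean of at most 3.96 RPM in any group. The summed chondrocyte markers, nearly all of it miR-140, were at 9043 to 11415 RPM over all groups, but on the TMM scale at 5089 to 5770 RPM in CP_7, 9862 to 11262 RPM in CP_0 and CP_14 and 16902 to 18419 RPM in CC. The other chondrocyte marker, miR-455, had its highest mean RPM in CP_7 under both names (miR-455-3p at 136 RPM, against 23.8 to 45.8 elsewhere, and miR-455-5p at 498, against 200.1 to 325). On the TMM scale miR-455-3p was still highest in CP_7 (71.9 RPM, against 27.2 to 53.0 elsewhere). There miR-455-5p was highest in CC instead (541 RPM, against 227 to 263 elsewhere). The leukocyte list reached at most 35.4 RPM and the epithelial list at most 21.2 RPM, and no marker name on these lists was at 0 in all libraries. The part of these shifts in the results was not tested.

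Predicted miRNAs were sparse next to cattle-named ones. Of the 69, 8 (11.6%) had a read in all 12 libraries, against 246 of 475 cattle names (51.8%). A total of 14 of the 69 (20.3%) reached 10 or more reads in at least 3 libraries as did 267 cattle names (56.2%). The median name held 13 reads over all libraries, against 127 for cattle names, and 28 of the 69 held fewer than 10. All 69 together held 9586 reads, of which novel_37 alone took 5171 (53.9%), novel_64 took 1396 (14.6%) and novel_74 took 480 (5.01%). With novel_206 at 353 reads and novel_342 at 332 reads, 5 names held 80.7% of the reads.

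The summed share of reads on predicted miRNAs was highest on day 7. It was 0.0154%, 0.0122% and 0.0114% in the CP_0 libraries, 0.177%, 0.185% and 0.158% in CP_7, 0.0184%, 0.0182% and 0.0175% in CP_14, and 0.00742%, 0.00788% and 0.00829% in CC. As a share of reads no 2 groups overlapped, and the order was CP_7, CP_14, CP_0 and CC. The mean was 0.173% ± 0.014 in CP_7 and 0.0130% ± 0.0021 in CP_0 (SD, n = 3), a ratio of 13.5 between the geometric means. Group labels permuted over the 12 libraries gave an exact p of 6.49e-05, the smallest they can give. Each of the 4 pairs of groups compared (CP_7 and CP_0, CP_14 and CP_7, CP_14 and CP_0, CC and CP_14) gave a two-sided exact permutation p of 0.1, the smallest that 3 against 3 libraries allow. The ratio of CP_7 to CP_0 was 6.2 for the TMM-normalized sum and 6.96 with miR-21-5p taken out of the totals. On the TMM scale CC (127.7 to 132.8 RPM) overlapped CP_0 (132.76 to 163.6 RPM), and without miR-21-5p both CP_14 (exact permutation p = 0.5) and CC overlapped CP_0, while CP_7 lay above all other libraries on every scale.

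Much of that rise was 1 name. Without novel_37 the mean share was 0.030% in CP_7, 0.00878% in CP_0, 0.00995% in CP_14 and 0.00611% in CC (4-group exact permutation p = 0.00026), and CP_14 then overlapped CP_0 (exact p = 0.4). Without novel_342 as well, CP_7 stood at 0.0167% ± 0.0029 and CP_0 at 0.00876% ± 0.0016 (SD, n = 3), still without overlap as a share of reads. On the TMM scale the sum without novel_37 was 158.5 ± 31.7 RPM in CP_7, 99.2 ± 12.8 in CP_0, 100.2 ± 2.5 in CP_14 and 101.5 ± 2.0 in CC (SD, n = 3, 4-group exact permutation p = 0.0173). In the CP_7 libraries this sum was 135.4, 194.6 and 145.5 RPM, of which novel_342 made up 65.1, 95.6 and 51.5 RPM. In CP_0 it was 113.8, 90.0 and 93.9 RPM, with 0.72, 0 and 0 RPM of novel_342. A lead of CP_7 without both names was thus shown for the share of reads only, and was not tested on the TMM scale. On that scale CC was not below CP_14 (exact p = 0.7), so the low summed share in CC without novel_37 was not seen after TMM normalization.

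**Figure D1:**
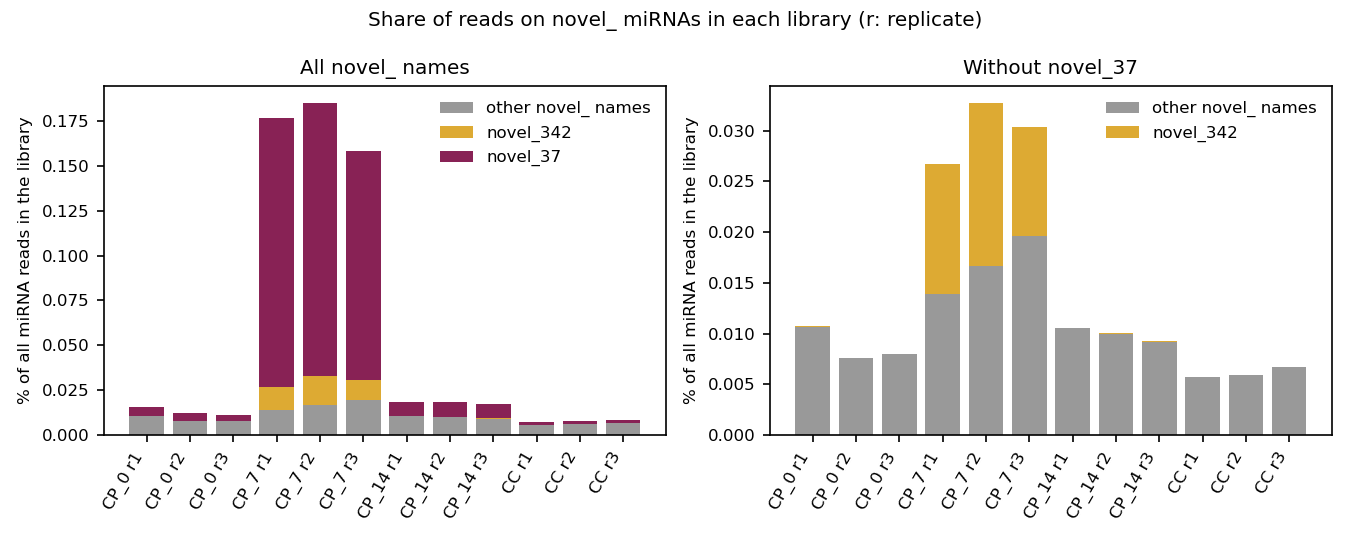
Bars give the percent of a library's miRNA reads that fell on predicted miRNAs, 1 bar per library in the 4 groups, split into novel_37, novel_342 and the other names (left), and without novel_37 (right). The CP_7 bars stand at 0.158% to 0.185% on the left, and with novel_37 left out they fall to 0.0268% to 0.0328% but stay above all other libraries.

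The number of names detected did not follow depth. A read was seen for 31 of the 69 names in CC, the most deeply sequenced group, against 48 in CP_0, 49 in CP_7 and 58 in CP_14. Of the 475 cattle names, 412 were seen in CC and 392, 380 and 411 in the CP groups in order of days. With every library thinned to 539455 reads, the size of the smallest, the expected number per library was 9.86 ± 0.53 in CC, 17.0 ± 2.6 in CP_0, 27.2 ± 1.6 in CP_7 and 24 ± 1.8 in CP_14 (SD, n = 3). At equal depth the CC libraries, at 9.32 to 10.4 names, lay below every CP library, the lowest of which stood at 14.3. CP_7 (25.4 to 28.3 names) and CP_14 (22.3 to 25.9) overlapped. Cattle names at equal depth came to 249.2, 270.9, 309.4 and 282.8 in the same order of groups. In the same order, 17, 23, 17 and 29 predicted miRNAs had a read in each of the 3 libraries.

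**Figure D2:**
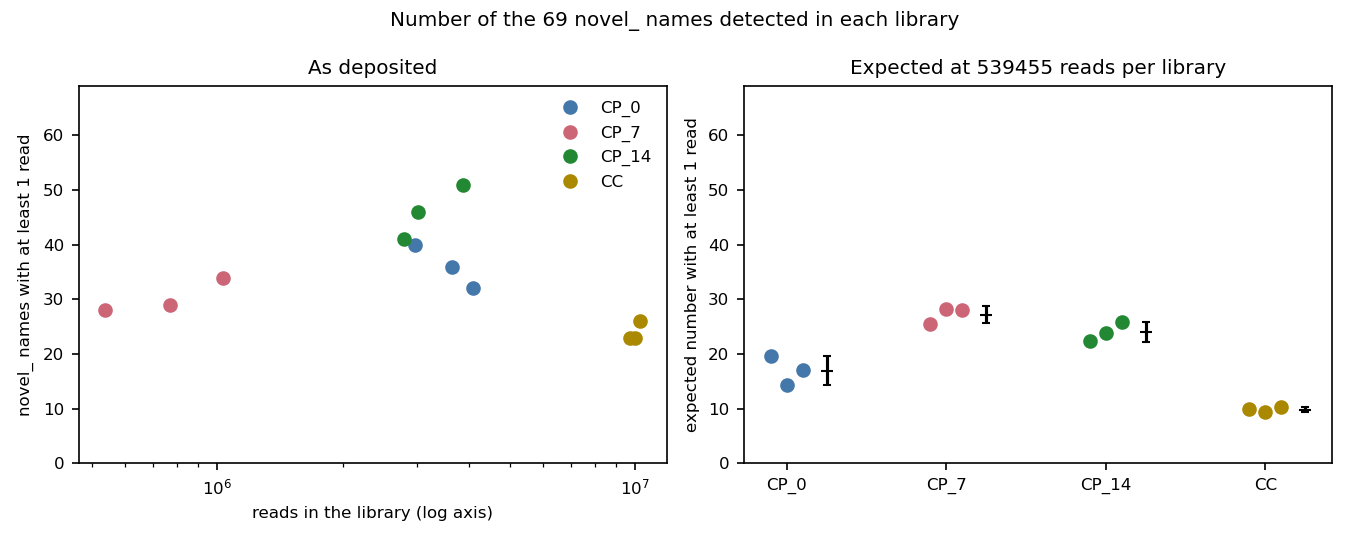
Points are libraries, colored by group; the left panel sets the number of the 69 names with at least 1 read against the reads in the library (log axis), and the right panel gives the number expected at 539455 reads, with mean and SD (n = 3) as black bars. The CC libraries are the deepest and lie lowest in both panels, at 9.32 to 10.4 names at equal depth.

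The comparisons follow the induction and end with the chondrocytes. For each, limma was fitted on log2(TMM-normalized RPM + 1) over all miRNAs that passed a filter on low counts, with Benjamini-Hochberg adjustment over all of them, and a call is an adjusted p below 0.05. Adding 1 RPM understates the change of scarce miRNAs. A predicted miRNA whose reads reached the limit of the filter in all 3 libraries of 1 group alone passed through that group, so its difference was in part set by the filter. That was so in every called comparison of novel_342, novel_272, novel_303, novel_357, novel_420, novel_403, novel_421, novel_38, novel_276 and novel_206, and their p-values are given as a description. The names novel_37, novel_64 and novel_123, and novel_74 where it was called, reached the limit in all libraries of both groups.

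Of the 8 predicted miRNAs tested between CP_7 and CP_0, 5 rose and 2 fell by day 7, against 63.4% of all miRNAs tested that were called in either direction (35.0% higher and 28.5% lower). Between CP_14 and CP_7, 1 of 8 rose and 3 fell, with 52.8% of all miRNAs called (24.4% higher and 28.5% lower on day 14). Between CP_14 and CP_0, 4 of 8 rose and 2 fell, with 46.0% called (24.8% higher and 21.2% lower). Between CC and CP_14, 5 of 13 were higher and 6 lower in CC, with 74.6% called (37.7% higher and 37.0% lower in CC). Across the 4 groups, 13 of 16 tested differed, against 84.2% of all miRNAs. Each CP group enters more than 1 of these comparisons, so the counts are not independent. The values of the groups did not overlap on the TMM scale for 7 of 8, 5 of 8, 6 of 8 and 11 of 13 predicted miRNAs in the 4 comparisons in turn, against 67.1%, 61.8%, 56.4% and 78.6% of all miRNAs tested. The median log2 change of the predicted miRNAs tested was 2.23, -0.75, 0.20 and 0.47 in turn, against 0.057, -0.00052, 0.010 and 0.087 over all miRNAs tested, and with so few names that passed the filter by their high group this is a description only.

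The most abundant, novel_37, peaked on day 7. Its TMM-normalized level was 49.7, 53.7 and 38.9 RPM in the CP_0 libraries, 758, 906 and 612 RPM in CP_7, 77.5, 78.9 and 88.7 RPM in CP_14, and 30.5, 32.5 and 24.7 RPM in CC. The groups did not overlap, and their order was CP_7, CP_14, CP_0 and CC. It ranked 44 to 46 among 544 names in the CP_7 libraries, 115 to 131 in CP_0, 104 to 110 in CP_14 and 142 to 148 in CC. The log2 fold change was 4.0 (SE 0.19, limma adjusted p = 3.28e-06) from CP_0 to CP_7 and -3.26 (SE 0.15, adjusted p = 5.66e-06) from CP_7 to CP_14. Day 14 remained above day 0 by 0.79 (SE 0.15, adjusted p = 0.00461), and CC lay below CP_14 by a log2 difference of -1.46 (SE 0.13, adjusted p = 7.41e-06). All 4 calls held under each normalization tried and without any 1 library, and a 2-fold minimum removed that of day 14 against day 0.

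A pair of scarcer names was nearly confined to CP_7. The reads of novel_342 numbered 99, 166 and 58 in the CP_7 libraries, 2, 0 and 0 in CP_0, 0, 3 and 3 in CP_14, and 0, 1 and 0 in CC. Its mean level in CP_7 was 70.7 ± 22.6 RPM after TMM normalization (SD, n = 3), and every CP_7 library lay far above the others. Its share of reads in CP_7 was 222.6 times that in CP_14 (95% exact Poisson interval 101.2 to 611.1, counting error only), and the fitted log2 changes were 6.18 (SE 0.39) into day 7 and -5.84 (SE 0.40) out of it, with limma adjusted p = 9.49e-06 and 2.86e-05. The reads of novel_272 numbered 6, 8 and 7 in CP_7, 1, 0 and 0 in CP_0, 0, 0 and 1 in CP_14, and none in CC. Its share in CP_7 was 96.0 times that in CP_0 (interval 15.4 to 3972) and 86.8 times that in CP_14 (interval 14.0 to 3591), wide because each denominator held 1 read. By limma it was called both ways, with log2 changes of 2.69 (SE 0.43, adjusted p = 0.00115) and -2.81 (SE 0.34, adjusted p = 0.000436). The summed muscle markers, mostly miR-1, were also at their highest in the CP_7 libraries, and so was miR-126-3p of the endothelial marker. A link between these markers and the predicted miRNAs was not tested.

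**Figure D3:**
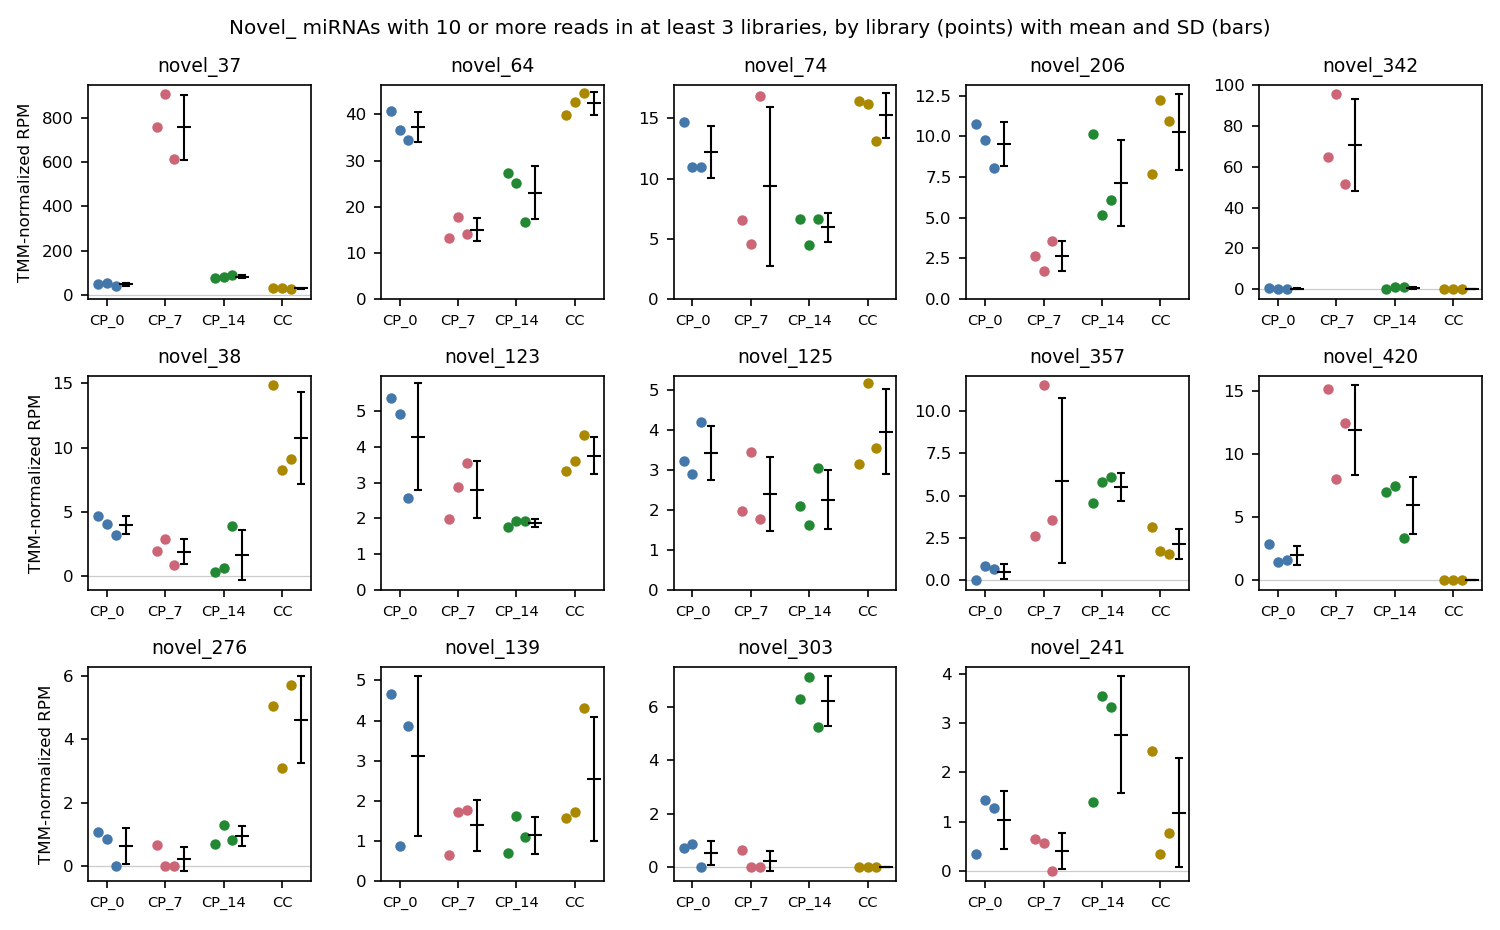
Each panel is 1 of the 14 predicted miRNAs with 10 or more reads in at least 3 libraries; points are the TMM-normalized RPM of single libraries in the 4 groups, and black bars give the mean and SD (n = 3). The vertical scales differ: novel_37 reaches 906 RPM in CP_7, and novel_241 stays below 4 RPM in every library.

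One name, novel_303, was high on day 14 alone. Its reads numbered 18, 22 and 19 in the CP_14 libraries, 2, 3 and 0 in CP_0, 1, 0 and 0 in CP_7, and none in CC. Its share in CP_14 was 13.1 times that in CP_0 (95% exact Poisson interval 5.29 to 41.7) and 14.3 times that in CP_7 (interval 2.46 to 573). The log2 change from CP_0 to CP_14 was 2.23 (SE 0.34, limma adjusted p = 0.00157). Against CC, where 0 of 29940800 reads allow a level of up to 0.10 RPM over the group, its share in CP_14 was at least 60.8-fold higher, or at least 37.1-fold on the TMM scale. This and the later bounds against CC take the CP_14 share as observed and leave out its own counting error.

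Induced cells also held more novel_357 and novel_420 than uninduced ones. The reads of novel_357 numbered 0, 3 and 2 in CP_0, 4, 20 and 4 in CP_7, 13, 18 and 22 in CP_14, and 18, 10 and 10 in CC. Its log2 change from CP_0 was 2.23 (SE 0.59, limma adjusted p = 0.0114) to day 7 and 2.11 (SE 0.34, adjusted p = 0.00213) to day 14, and CC lay below CP_14 by a log2 difference of -1.01 (SE 0.24, adjusted p = 0.00391). The call on CC was lost with no normalization (log2 -0.34) and with all 12 libraries in 1 fit (adjusted p = 0.0538 by limma), and that on day 7 with no normalization (1.39). The CP_7 mean leaned on replicate 2, and days 7 and 14 overlapped. The reads of novel_420 numbered 8, 5 and 5 in CP_0, 23, 14 and 14 in CP_7, 20, 23 and 12 in CP_14, and none in CC. Its TMM-normalized level was 1.97 ± 0.78 RPM in CP_0, 11.9 ± 3.6 in CP_7 and 5.93 ± 2.3 in CP_14 (SD, n = 3), with no overlap between groups. The rise to day 7 was called (log2 2.22, SE 0.41, limma adjusted p = 0.00219), and the lower level on day 14 than on day 7 was not (log2 -1.01, adjusted p = 0.0697), although it was with library size as the only scaling (-1.80) and with all 12 libraries in 1 fit (-0.91). Day 14 lay above day 0 (log2 1.18, SE 0.36, adjusted p = 0.0334), a call lost without CP_0 replicate 2 (1.06), CP_14 replicate 1 (1.02) or CP_14 replicate 2 (0.98), and without the filter (limma adjusted p = 0.0515). Its share in CP_14 was at least 56.7-fold higher than in CC, or at least 34.6-fold on the TMM scale.

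On the TMM scale novel_64 and novel_206 were lower on day 7 than on day 0. The level of novel_64 was 40.8, 36.6 and 34.4 RPM in CP_0, 13.1, 17.9 and 14.2 RPM in CP_7, 27.4, 25.2 and 16.6 RPM in CP_14, and 39.8, 42.7 and 44.6 RPM in CC. CP_0 and CC overlapped at the top, and CP_7 and CP_14 overlapped at the bottom. It fell by 1.25 on the log2 scale from CP_0 to CP_7 (SE 0.20, limma adjusted p = 0.00129), was lower on day 14 than on day 0 by a log2 change of -0.68 (SE 0.20, adjusted p = 0.0297), and stood above CP_14 in the chondrocytes by 0.86 (SE 0.19, adjusted p = 0.00247). These 3 calls were all lost with library size as the only scaling (log2 -0.19, -0.53 and 0.18), and the second also without CP_0 replicate 1 (-0.61) or 2 (-0.69). As a share of reads, novel_64 was thus not shown to differ between CP_0 and CP_7. A 2-fold minimum also removed the calls of day 14 against day 0 and of CC against CP_14.

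The level of novel_206 was 10.7, 9.81 and 8.04 RPM in CP_0, 2.63, 1.73 and 3.55 RPM in CP_7, 10.2, 5.17 and 6.10 RPM in CP_14, and 7.68, 12.2 and 11 RPM in CC. CP_7 lay below every other library, on only 4, 3 and 4 reads in its libraries, and the other 3 groups overlapped in part. The fall to day 7 was -1.60 on the log2 scale (SE 0.37, limma adjusted p = 0.00662), which became -0.66 with library size as the only scaling and was then not called (adjusted p = 0.169). The rise from day 7 to day 14 was 1.15 (SE 0.38, adjusted p = 0.036), a call lost with library size alone, with DESeq2 and without the filter. With the same miRNAs tested it was also lost without CP_7 replicate 2 (1.0) and without CP_14 replicate 1 (0.92), 2 (1.34) or 3 (1.22).

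The level of novel_74 was 14.7, 11 and 10.9 RPM in CP_0, 6.57, 4.61 and 16.9 RPM in CP_7, 6.66, 4.53 and 6.65 RPM in CP_14, and 16.4, 16.2 and 13.1 RPM in CC. CP_7 replicate 3 stood above the other CP_7 libraries, so day 7 was not called against day 0 (log2 -0.51, limma adjusted p = 0.40) but was without that library (log2 -1.09, adjusted p = 0.0229). Day 14 lay below day 0 by -0.91 on the log2 scale (SE 0.23, adjusted p = 0.0157), a call lost without CP_0 replicate 1 (-0.77), with all 12 libraries in 1 fit (limma adjusted p = 0.0638) and with a 2-fold minimum. CC lay above CP_14 by 1.19 (SE 0.20, adjusted p = 0.000526).

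**Figure D4:**
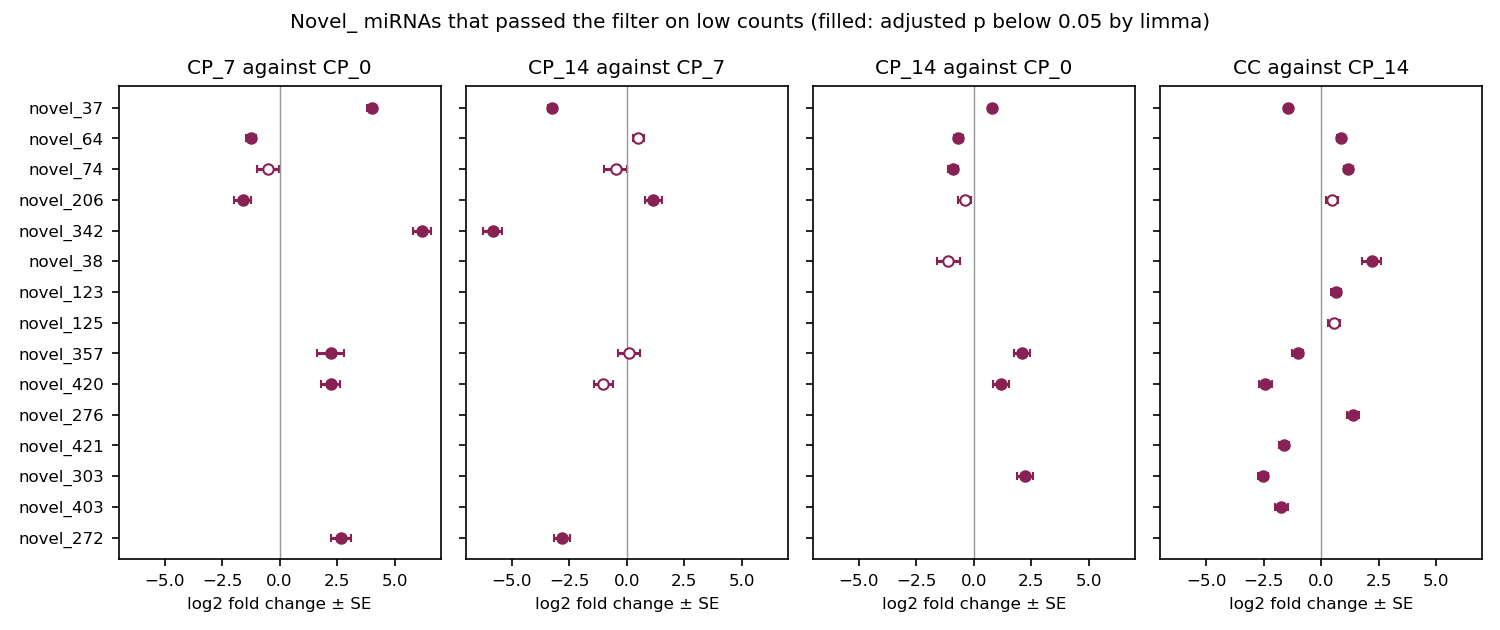
Points are log2 fold changes of TMM-normalized RPM + 1 (limma) with their SE for each predicted miRNA that passed the filter, in 4 comparisons; filled points have an adjusted p below 0.05. novel_37, novel_342 and novel_272 lie to the right at day 7 against day 0 (4.0, 6.18 and 2.69) and to the left at day 14 against day 7 (-3.26, -5.84 and -2.81).

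Chondrocytes held more of novel_38 and novel_276 than day 14 cells. The reads of novel_38 numbered 85, 48 and 59 in CC, 1, 2 and 14 in CP_14, 13, 14 and 10 in CP_0, and 3, 5 and 1 in CP_7. Its TMM-normalized level was 10.7 ± 3.6 RPM in CC and 1.63 ± 2.0 in CP_14 (SD, n = 3), where replicate 3 stood apart at 3.88 RPM, and CC lay above every CP library. The log2 difference of CC from CP_14 was 2.19 (SE 0.41, limma adjusted p = 0.00103). Day 14 against day 0 was not called (log2 -1.12, adjusted p = 0.101), but was without CP_14 replicate 3 (-1.69). The reads of novel_276 numbered 29, 18 and 37 in CC, 3, 3 and 0 in CP_0, 1, 0 and 0 in CP_7, and 2, 4 and 3 in CP_14. Its share in CC was 3.02 times that in CP_14 (95% exact Poisson interval 1.52 to 6.83) and 5.01 times that in CP_0 (interval 2.21 to 14.0), and the log2 difference from CP_14 was 1.38 (SE 0.25, adjusted p = 0.000892).

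The other 4 names of the 14 varied little or unevenly. The reads of novel_123 numbered 15, 17 and 8 in CP_0, 3, 5 and 4 in CP_7, 5, 6 and 7 in CP_14, and 19, 21 and 28 in CC. CC lay above CP_14 by 0.66 on the log2 scale (SE 0.21, limma adjusted p = 0.0175), a call lost with library size as the only scaling (0.18), with DESeq2, without the filter and, with the same miRNAs tested, without CC replicate 2 (0.69) or 3 (0.58). A 2-fold minimum removed that call as well. The 4-group test did not call novel_123 (limma adjusted p = 0.0502). The reads of novel_125 numbered 9, 10 and 13 in CP_0, 3, 6 and 2 in CP_7, 6, 5 and 11 in CP_14, and 18, 30 and 23 in CC, and its groups did not differ by the 4-group test (limma adjusted p = 0.151). The reads of novel_139 numbered 13, 3 and 12 in CP_0, 1, 3 and 2 in CP_7, 2, 5 and 4 in CP_14, and 9, 10 and 28 in CC, again without a call by the 4-group test (limma adjusted p = 0.265). In the comparisons of 2 groups novel_139 did not pass the filter. The reads of novel_241 numbered 1, 5 and 4 in CP_0, 1, 1 and 0 in CP_7, 4, 11 and 12 in CP_14, and 14, 2 and 5 in CC, and it did not pass the filter in the comparisons of CP groups or of CC with CP_14.

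Which group stood highest depended on the scale. By mean TMM-normalized RPM, 6 of the 14 were highest in CC, 4 in CP_7, 2 in CP_0 and 2 in CP_14. By RPM as deposited, 7 were highest in CP_7, 3 in CP_0, 2 in CC and 2 in CP_14. Among those just inside the choice of 14, novel_342, novel_276, novel_303 and novel_241 reached 10 reads in exactly 3 libraries, and novel_403, just outside, did so in 2.

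Many predicted miRNAs seen in RMCs had no read in chondrocytes. Of the 38 names with 10 or more reads over the 9 CP libraries, 20 (52.6%) had none among the 29940800 CC reads, against 6 of 331 cattle names (1.81%). The contrast held at matched abundance: with 10 to 19 CP reads, 10 of 15 predicted miRNAs and 3 of 28 cattle names had no CC read, with 20 to 49 CP reads 7 of 11 and 1 of 38, and with 50 to 199 CP reads 3 of 8 and 1 of 68. With 200 or more CP reads, 0 of 4 predicted miRNAs and 1 of 197 cattle names were at 0. With 1 to 9 CP reads the contrast was smaller, at 18 of 28 predicted miRNAs (64.3%) and 57 of 125 cattle names (45.6%). The count was 20, 21 and 20 with CC replicate 1, 2 or 3 left out in turn. Every library file lists all 545 names, these at 0 in the CC files, and no source used here says whether each library was searched for predicted miRNAs in the same way.

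The most abundant of the 20 were novel_420 (124 CP reads), novel_421 (66) and novel_303 (65). The reads of novel_421 numbered 6, 4 and 8 in CP_0, 2, 15 and 6 in CP_7, and 9, 8 and 8 in CP_14, and its share in CP_14 was at least 25.8-fold higher than in CC, or at least 15.7-fold on the TMM scale. The reads of novel_403 numbered 3, 2 and 5 in CP_0, 5, 2 and 3 in CP_7, and 12, 11 and 6 in CP_14, with a share in CP_14 at least 29.9-fold higher than in CC, or at least 18.2-fold on the TMM scale. By limma both were lower in CC than in CP_14 (adjusted p = 0.000139 and 0.000363), as were novel_303 (adjusted p = 5.09e-06) and novel_420 (adjusted p = 4.17e-05). These names are listed here for having no CC read and passed the filter through CP_14 alone. The direction was thus set by the choice, and the p-values are a description only. For 13 of the 20 the observed share in CP_14 was at least 10-fold higher than the CC limit, and for 6 of the 20 it was so on the TMM scale. Some of the 13 lay close to 10-fold on few reads, such as novel_316 and novel_405 at 10.3-fold with 10 CP_14 reads each. The counting error of the CP_14 reads is not in these counts of names. The names below 10-fold by share of reads held at most 7 CP_14 reads each. Of them, novel_272 and novel_273, with 1 and 0 CP_14 reads, had most of their reads in CP_7 and CP_0.

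**Figure D5:**
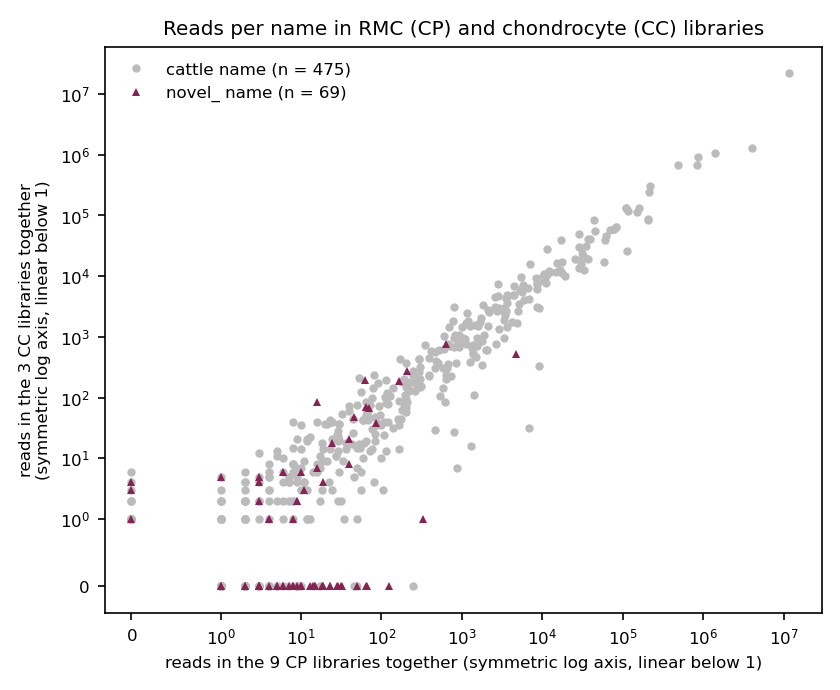
Each point is a name, placed by its reads in the 9 CP libraries together (horizontal) and in the 3 CC libraries together (vertical), on symmetric log axes that are linear below 1; triangles are the 69 predicted miRNAs and gray circles the 475 cattle names. A row of triangles lies along the bottom at 0 CC reads, up to novel_420 at 124 CP reads, and 20 of them have 10 or more CP reads.

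The absence from CC went with the number in the name. Below novel_280, 22 of 25 names had a CC read, and from there up, novel_286 to novel_436, 9 of 44 had one, with 2287 and 66 CC reads in all. The split at 280 was chosen after the values were seen, and no source used here says what the numbering follows. The first set held 10 of the 14 names and the second held 4: novel_342, novel_357, novel_420 and novel_303.

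A few names were seen in a single group. Only CC held reads of novel_185 (3 reads), novel_343 (1) and novel_373 (4). Only CP_14 held reads of novel_316, with 10 reads spread over its 3 libraries, and of 4 others. CP_0 alone held 1 such name and CP_7 alone held 2, none with more than 3 reads. Apart from the 14 and the 3 others called between 2 groups (novel_272, novel_403 and novel_421), 52 names remained, with 1 to 47 reads each and at most 11 in a library. The most in a library was 11 reads for novel_375 and novel_300 and 10 for novel_360. Of these 52, novel_286, with 2, 3 and 6 reads in CP_0, 3, 9 and 3 in CP_7, 4, 1 and 1 in CP_14 and none in CC, was called by the 4-group test (limma adjusted p = 0.00171). It passed the filter through CP_7, where its level was highest, so that p-value is given as a description.

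Cattle-named miRNAs with the most similar pattern were sought among 336 names over the 12 libraries, as a description. For novel_37 they were miR-29a (Pearson r = 0.98) and miR-221 (0.98), for novel_342 miR-29a (0.98) and miR-181d (0.95), and for novel_272 miR-29a (0.97) and miR-22-5p (0.94). The mean level of miR-29a was 2154 TMM-normalized RPM in CP_7, against 1151 in CP_0, 1274 in CP_14 and 1111 in CC. For novel_64 they were miR-100 (0.95) and miR-197 (0.95), both lowest in CP_7, and for novel_74 miR-497 (0.80) and miR-2331-3p (0.78). The libraries share their depth and group, so a group that stands apart is enough to give a high r.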

How the data were processed

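Small RNA libraries were made from total RNA with the NEBNext small RNA kit. Per the labels' processing notes, CASAVA, bcl2fastq 1.8.4 and Bowtie were used, with no Bowtie version or deer genome build given. The authors deposited 1 table per library of miRNA names and RPM (headed tpm, with no length scaling), that is reads per 1000000 miRNA reads. In every library 100% of values were whole multiples of 1 read within 0.01 read, and the recovered counts were used for depths, floors (3 reads) and count tests. The name novel_351 was dropped as a copy of novel_348. Replicates of a group differed by more than sampling noise (smallest chi-square per degree of freedom 4.92).

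Each comparison used its 2 groups of 3 libraries (all 12 for the 4-group test): TMM factors (edgeR 4.0.16) on the whole table, the filterByExpr filter (minimum count 10, total 15), log2(TMM-normalized RPM + 1), limma 3.58.1 with trend, in R 4.3.3, and calls at an adjusted p below 0.05. The script was checked on simulated data. Levels by library use factors over all 12 libraries. Exact permutation tests used scipy 1.17.1. Alternatives were other scalings, edgeR, DESeq2 1.42.0, pseudocounts of 0.5 and 5 RPM, no filter, a 2-fold minimum and each library left out. Named are all predicted miRNAs with 10 or more reads in at least 3 libraries, any other that was called, and the 3 of the rest with the most reads in a library; other names were picked once their values were known. The members, lists and tests were chosen with earlier results of these data known. Intervals and floors cover counting error only, since PCR copies are not independent molecules.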

Additional observations from a re-analysis of the deposited data

How the results depend on the processing

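Depth limited the scarce names most, since 10 reads in the smallest library are a far larger share than in CC. The counts of calls changed by over 1.5 times in the following cases. Without the filter on low counts, 8 predicted miRNAs were called between CP_14 and CP_7, 13 between CP_14 and CP_0, 25 between CC and CP_14 and 21 across the 4 groups. With all 12 libraries in 1 fit, 8 were called between CP_14 and CP_7, and a 2-fold minimum left 3 between CP_14 and CP_0. With 1 library left out, the counts ran from 4 to 8 for CP_7 against CP_0 (4 without CP_0 replicate 1, 2 or 3, where the filter let fewer names through) and from 2 to 6 for CP_14 against CP_7 (2 without CP_14 replicate 1, 2 or 3). Those for CP_14 against CP_0 (4 to 8) and for CC against CP_14 (10 to 15) stayed within 1.5 times of the count with all libraries. In a check chosen after seeing the data, with the same miRNAs tested, 7 or 8 were called between CP_7 and CP_0 and 3 or 4 between CP_14 and CP_7. The replicate numbers did not pair the samples (correlations of same-numbered deviations -0.29 to 0.13), and a replicate block left the counts at 7, 4, 6, 11 and 13. Library size alone moved the split for CP_7 against CP_0 to 5 higher and 0 lower.

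The changes that turned direction were not called to begin with, and the cause was not tested. With library size alone the log2 changes were 0.50 for novel_74 from CP_0 to CP_7, -0.67 for novel_357 and -0.33 for novel_64 from CP_7 to CP_14, and -0.14 for novel_206 from CP_14 to CC. Without normalization those from CP_7 to CP_14 were 0.089 for novel_420 and 0.60 for novel_74. For novel_357 over that step edgeR gave -0.19 and DESeq2 -0.16, and leaving out CP_7 replicate 1, CP_7 replicate 3 or CP_14 replicate 3 gave -0.23, -0.055 and -0.0026 (range with 1 library left out -0.23 to 0.70). For novel_74, leaving out CP_7 replicate 3 gave 0.078 (range with 1 library left out -0.78 to 0.078).

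Detection in CP_0, CP_7, CP_14 and CC came to 23, 17, 29 and 17 names with a read in all 3 libraries, 8, 7, 14 and 11 with 10 reads in a library, and 17.0, 27.2, 24 and 9.86 expected at equal depth. The mean summed share was 0.0327%, 0.226%, 0.0350% and 0.0317% with miR-21-5p taken out of the totals, 0.00878%, 0.030%, 0.00995% and 0.00611% without novel_37, and 0.00876%, 0.0167%, 0.00989% and 0.00611% without novel_37 and novel_342. TMM normalization gave 0.0917% in CP_7 and 0.0131% in CC. With 20 or more CP reads required, 10 names had none in CC.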
